A study of Mus musculus with 10 samples.

Results

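Motor neurons made from fibroblasts were compared with motor neurons made from embryonic stem (ES) cells. The comparison takes 6 of the 10 arrays of the series, chosen by sample title: 2 arrays of induced motor neurons and 4 arrays of ES-derived motor neurons. The induced cells were Hb9::GFP-transgenic mouse embryonic fibroblasts of C57BL/6 background in which 10 transcription factors had been overexpressed, and the labels do not name the factors. Sorting gave 1 fraction high and 1 medium in GFP, with 1 array each. The ES-derived cells were differentiated from the Hb9::GFP-transgenic line V6.5 and sorted into the same gates, with 2 arrays (replicates 1 and 2) per gate. The other 4 arrays hold GFP-high and GFP-medium motor neurons from the spinal cord of Hb9::GFP-transgenic C57BL/6 embryos at E13.5. They are not compared here, but they enter the normalization, the detection filter, the choice of probes, the gate term and the estimate of the spread. They also give a level for context. All 6 groups therefore carry the reporter and passed a sort on it, the ES-derived group is 1 cell line, and the strain or line differs with the origin, so the origin and the genetic background cannot be told apart. The labels do not say whether the 2 induced fractions came from the same culture, or whether replicates were separate cultures, and the p-values thus measure a spread that may be technical.

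Hb9, the product of Mnx1, is a homeodomain protein that postmitotic spinal motor neurons switch on with the LIM-homeodomain proteins Isl1 and Lhx3, and its promoter is widely used to mark these cells with a fluorescent reporter. Motor neurons use acetylcholine as their transmitter and take a position along the cord that is recorded in their Hox genes. ES cells reach this state through a neural progenitor stage guided by signals in the medium, whereas forced transcription factors can turn fibroblasts into neurons without a step through ES cells.

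The arrays differed in brightness. The mean deposited intensity was 166 and 140 on the induced GFP-high and GFP-medium arrays, against 3.16 and 575 on the ES-derived GFP-high arrays and 81.6 and 577.2 on the ES-derived GFP-medium arrays. With a detection p under 0.01, 8646 and 8182 of 25697 probes were detected in induced cells, against 2095 and 7799 in the ES-derived GFP-high replicates 1 and 2 and 7264 and 10041 in the GFP-medium replicates 1 and 2. The ES-derived GFP-high replicate 1 is therefore the dim array of the set, and its lowest detected signal lay at 8.68 on the normalized log2 scale. Over 9679 features (8967 genes and 712 probes without a gene name) the 2 induced arrays correlated at r = 0.964 with each other, at 0.779 to 0.871 with the 3 other ES-derived arrays, and at 0.601 or more with all 4. The 3 other ES-derived arrays correlated at 0.801 to 0.912 among themselves, and the correlations are across genes, which are not independent replicates. The median gap between the 2 induced arrays over all features was 0.28 log2 units, and the median range over the 4 ES-derived arrays was 1.97, or 1.04 without the dim array. Of 20 pan-neuronal genes on the array, 17 and 16 were detected in induced GFP-high and GFP-medium cells, against 10 to 15 in ES-derived cells, and of 11 motor neuron transcription factors 5 and 5, against 2 to 8. The lowest of these counts, 10 and 2, were both on the ES-derived GFP-medium replicate 1. Its summed linear pan-neuronal signal was 2953, against 10071 to 29392 on the other ES-derived arrays. It detected 16 of 20 pluripotency genes, against 2 to 12 on the other ES-derived arrays. What cells this array held was not tested. The motor neuron genes Lhx3 and Slc18a3 were detected on neither induced array. For the 10 factors the arrays cannot tell transgene RNA from the cell's own.

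Over all arrays few features passed a threshold on the adjusted p, and these differed by large amounts. With 2 induced arrays only large differences could pass, so the count does not measure how many genes differ. Neuropeptide and transmitter genes (Gal, Th, Vgf), G protein signalling genes (Rgs4, Gng8), the acute-phase inhibitor Serpina3n and the nuclear factor I genes Nfib and Nfix were higher in induced cells. Glucose transporters and glycolytic enzymes (Slc2a1, Slc2a3, Hk2, Pfkl), the growth factors Mdk and Ptn, the imprinted gene Ndn and the progenitor gene Sox21 were lower in induced cells. In a limma fit with origin and GFP gate as terms over all 10 arrays, 78 of 9679 features (0.806%) passed a Benjamini-Hochberg adjusted p of 0.05 and are referred to as called. Of these, 54 were higher (0.558% of all features) and 24 lower (0.248%) in induced cells, and 7 of the 78 were probes without a gene name. The differences of the called features ran from 1.96 to 5.86 log2 units upward and from -2.22 to -6.75 downward, against a median of 0.08 over all features. At an unadjusted p under 0.05, 1148 features differed. For all 78, the 2 induced arrays lay entirely above or below the 4 ES-derived arrays, which was also true of 2058 of all features (21.3%). The lack of overlap fixes that the sign was the same in both gates for all 78.

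The count of calls turned on the arrays used. In a fit of only the 6 induced and ES-derived arrays 0 features were called, with 536 at an unadjusted p under 0.05 and a smallest adjusted p of 0.0962 (limma, 3 residual degrees of freedom). All 27 of the called genes named by the fixed rule given with the processing thus lost the call. Called genes named outside that rule, such as Nfix and Slc2a3, are not among the 27. Without the dim array, 404 of 9647 features (4.19%) were called, 218 higher (2.26%) and 186 lower (1.93%), and the 404 held all 78. Without the induced GFP-high array 1 feature was called, and likewise 1 without the induced GFP-medium array, Serpina3n in both cases. Without the embryonic GFP-high replicate 2 the count was 50, and without the embryonic GFP-medium replicate 2 it was 41. Of those 27, 16 were called in each of the 8 fits that left out 1 array but kept both induced arrays. The other 11 (Gal, Hk2, Kcnj12, Lgals1, Lmo4, Mgarp, Ndn, Sct, Sox21, Uhrf1 and Vgf) lost the call in at least 1 of those fits. Scaling the arrays by their medians in place of quantile normalization left 4 calls, all higher: Serpina3n, Th, R3hdm1 and a probe without a gene name. All 27 kept their sign under every setting in which they were tested, which was 18 of 21 for Vgf and 20 of 21 for Serpina3n.

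**Figure D1:**
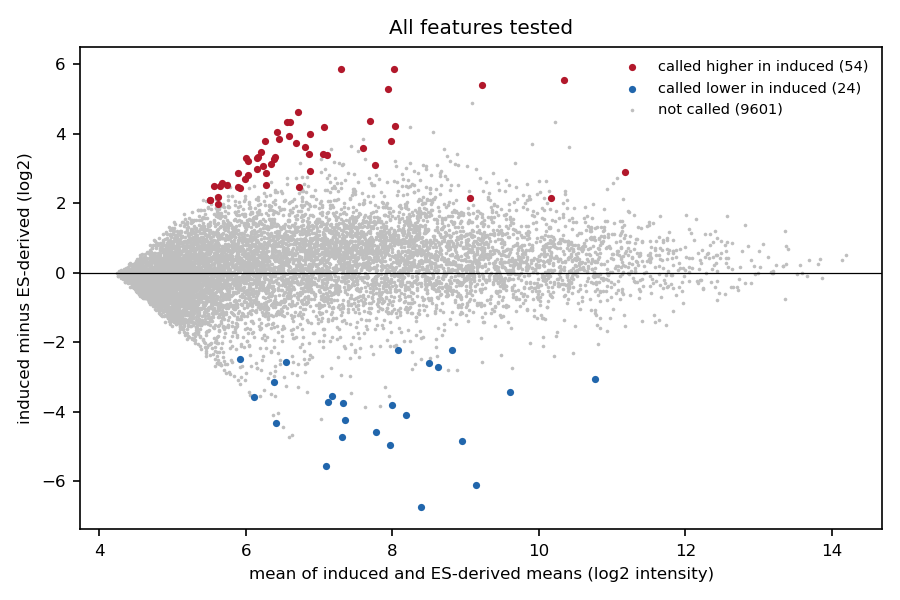
Difference between induced and ES-derived cells (log2, vertical) against the mean of both origins' means (log2 normalized intensity, horizontal) for the 9679 features tested. Red points are the 54 features called higher in induced cells, blue points the 24 called lower and grey points the rest; the called differences run from -6.75 to 5.86.

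Detection was uneven between the origins for the called genes. All 54 higher features were detected on both induced arrays, while 28 of them were detected on no ES-derived array and 24 on 1 to 3. Of the 24 lower features, 5 were detected on neither induced array, and all 24 were detected on at least 3 ES-derived arrays. Only 20 of the 78 were detected on the dim array, whose high floor sets a limit to any fold change. For genes detected on no array of an origin the fold, where printed, is a lower bound: the mean of the brighter origin over the mean, per array, of the higher of the lowest detected signal and the probe's own value. Where such a gene has no bound printed, its difference is measured against background and its size is not fixed. Values are normalized log2 intensities and are listed for induced GFP-high and GFP-medium cells, then for ES-derived GFP-high replicates 1 and 2 and GFP-medium replicates 1 and 2. Differences are induced minus ES-derived in log2 units with their standard error, and adjusted p-values are from limma over all 9679 features. Levels of different probes are not compared. In sorted bulk cells, fewer cells of a type and less RNA per cell cannot be told apart.

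The embryonic arrays lay between or beside the origins. For 42 of the 54 higher features the embryonic mean was nearer to the ES-derived mean, and for 12 nearer to the induced mean. For 19 of the 24 lower features it was nearer to the ES-derived mean, and for 5 nearer to the induced mean. Of the 54, 8 were detected on no ES-derived and no embryonic array, so these 8 entered the test only through the induced arrays. They include Vgf and, chosen after their values were seen, Ntsr2 (a neurotensin receptor gene) and R3hdm1.

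**Figure D2:**
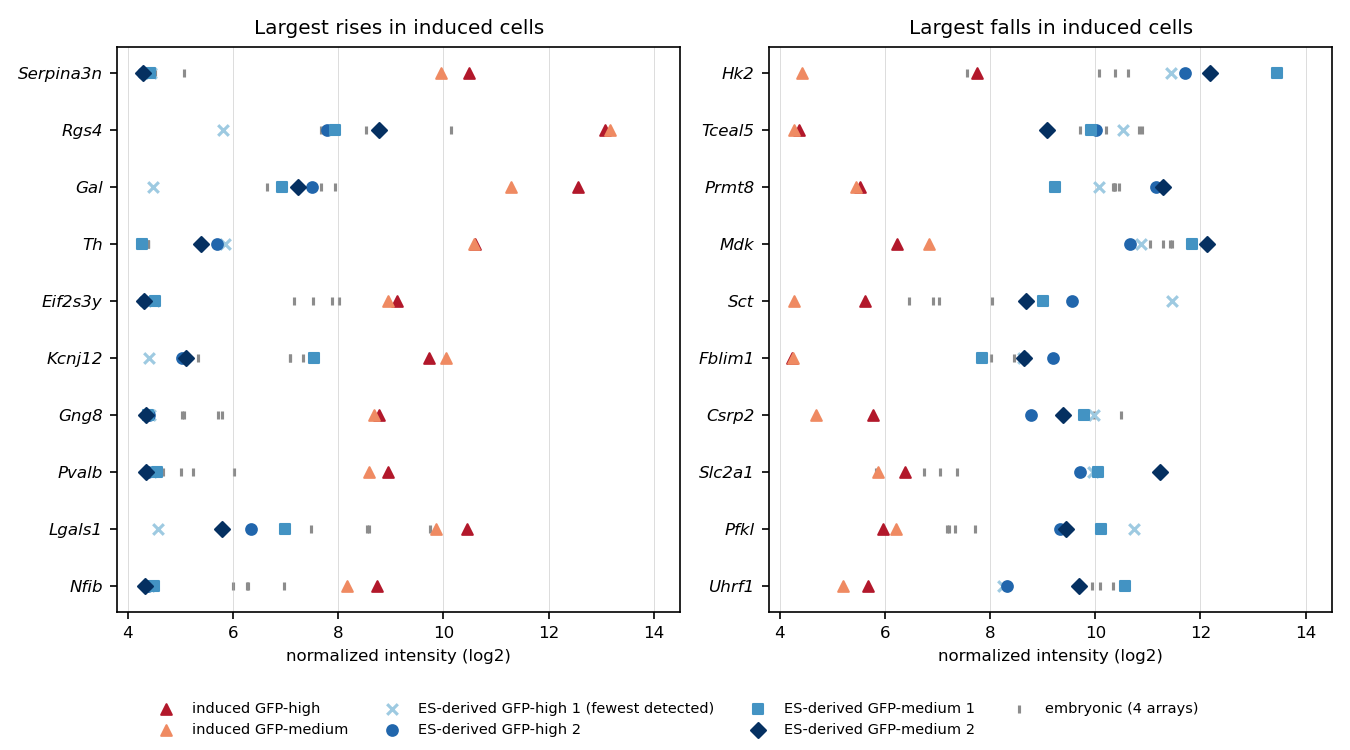
Normalized log2 intensity on each array (horizontal) of the 10 named genes with the largest rises (left panel) and the 10 with the largest falls (right panel) in induced cells. Red triangles are the 2 induced arrays, blue markers the 4 ES-derived arrays with the dim array as a cross, and grey ticks the 4 embryonic arrays; in every line the triangles lie apart from the blue markers, and for Hk2 the 2 triangles lie 3.32 apart.

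Among the transmitter and peptide genes, Th encodes tyrosine hydroxylase, the rate-limiting enzyme of catecholamine synthesis. Its promoter is shown because it carries a full cyclic AMP response element, TGACGTCA, and that of Gal is shown beside it as the other strongly raised gene of this kind. Both are the 250 bases before the gene start in RefSeq on GRCm38.p6, minus strand, printed 5′ to 3′, with any TGACGTCA (a palindrome, so the same on both strands) in capitals. Th lies at chr7:142899996-142900245 and Gal at chr19:3414545-3414794.
Th: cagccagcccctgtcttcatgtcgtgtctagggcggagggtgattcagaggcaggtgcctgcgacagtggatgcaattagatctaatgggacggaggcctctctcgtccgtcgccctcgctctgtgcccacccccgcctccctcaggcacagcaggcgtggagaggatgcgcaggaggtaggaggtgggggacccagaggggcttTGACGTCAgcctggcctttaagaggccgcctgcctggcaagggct
Gal: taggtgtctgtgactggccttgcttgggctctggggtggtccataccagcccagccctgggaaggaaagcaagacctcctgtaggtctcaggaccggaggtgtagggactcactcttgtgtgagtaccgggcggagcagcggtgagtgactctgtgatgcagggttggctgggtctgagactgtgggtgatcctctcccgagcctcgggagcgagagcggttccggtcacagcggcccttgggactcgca
The match in Th began 45 bases before the start, and the Gal window held none. Of 32851 promoters of this length, 508 (1.55%) held the motif, as did 2.54% of the 9386 promoters of genes tested, and a match describes the letters only.

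Th read 10.60 and 10.58 in induced cells, against 5.84, 5.70, 4.27 and 5.39 in ES-derived cells. Both induced arrays were high and close together, the ES-derived arrays detected it on 2 of 4, and no embryonic array detected it (mean 4.36). The difference was 5.29 ± 0.45 (adjusted p = 0.00108), and 5.92 ± 0.46 without the dim array. Gal, which encodes the neuropeptide galanin, read 12.56 and 11.29 in induced cells, against 4.48, 7.50, 6.94 and 7.23 in ES-derived cells. The induced arrays lay well above all 4 ES-derived arrays, of which the dim array was the lowest. The difference was 5.39 ± 0.85 (adjusted p = 0.0223), and 4.91 ± 0.50 without the dim array. Vgf, the precursor of secreted neuronal peptides, read 6.77 and 6.43 in induced cells, against 4.32, 4.65, 4.86 and 4.73 in ES-derived cells, where no array detected it. It was at least 1.40-fold higher in induced cells (measured difference 1.96 ± 0.36, adjusted p = 0.0452). No embryonic array detected Vgf, so it entered the test only through the induced arrays.

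Of the 9 tested members of the catecholamine and autonomic list, 1 (Th) was called higher, against 0.558% of all features. None was called lower, and the median was 0.26. Ddc, which acts after Th in dopamine synthesis, and Slc18a2, the vesicular monoamine transporter, were detected on neither induced array and on 2 ES-derived arrays each. Dbh, the enzyme that makes noradrenaline, and Phox2a, a regulator of autonomic neurons, were detected on none of the 10 arrays. With the dim array left out, another member, Chga (a secretory granule protein), was also called (3.23 ± 0.50, adjusted p = 0.00858). The peptide list had 9 members tested, 2 called higher (Gal and Vgf, against 0.558% of all features), 0 lower, and a median of 0.09. Vgf is in this count only through its detection on the induced arrays.

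For genes of signalling and excitability, Rgs4 encodes a protein that speeds the shut-off of G protein alpha subunits. It read 13.06 and 13.16 in induced cells, against 5.82, 7.79, 7.94 and 8.77 in ES-derived cells. The 2 induced arrays lay close together and above every ES-derived array, and the difference was 5.53 ± 0.85 (adjusted p = 0.0212). Gng8, a G protein gamma subunit, read 8.78 and 8.68 in induced cells, against 4.43, 4.41, 4.38 and 4.34 in ES-derived cells. No ES-derived array detected it, and it was at least 6.11-fold higher in induced cells (adjusted p = 0.00119). Kcnj12, an inward rectifier potassium channel, read 9.72 and 10.04 in induced cells, against 4.40, 5.03, 7.53 and 5.11 in ES-derived cells. The ES-derived GFP-medium replicate 1 was the highest of its group but still below both induced arrays, and the difference was 4.36 ± 0.73 (adjusted p = 0.0276). Pvalb, the calcium buffer parvalbumin, read 8.94 and 8.59 in induced cells, against 4.45, 4.38, 4.55 and 4.35 in ES-derived cells. It was detected on no ES-derived array and was at least 6.27-fold higher in induced cells (adjusted p = 0.00182). Among the 13 tested members of the ion channel and receptor list, which does not hold Kcnj12 or Ntsr2, 0 were called, with a median of 0.35. Cacna2d1, a calcium channel subunit, came nearest with 12.37 and 12.40 in induced cells, against 5.56, 9.27, 7.71 and 9.67 in ES-derived cells (4.34 ± 0.97, adjusted p = 0.107). It was called in the fit that left out the dim array, at 3.63 ± 0.64 (adjusted p = 0.0161). Glra2, a glycine receptor subunit, was detected on neither induced array and on all 4 ES-derived arrays (at least 6.71-fold lower in induced cells, adjusted p = 0.126). It was called lower without the dim array (adjusted p = 0.0308).

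Serpina3n, an acute-phase serine protease inhibitor, had the smallest adjusted p of all features. It read 10.49 and 9.96 in induced cells, against 4.44, 4.29, 4.42 and 4.30 in ES-derived cells. No ES-derived array and 1 embryonic array detected it, so without the induced arrays it would not have passed the detection filter. It was at least 17.2-fold higher in induced cells (measured difference 5.86 ± 0.37, adjusted p = 0.000343). Of the 7 inflammation and acute-phase genes tested it alone was called, against 0.558% of all features called higher, and their median was -0.13. Lyz2, the lysozyme of macrophages and other myeloid cells, read 8.36 and 7.94 in induced cells, against 4.30, 4.29, 4.52 and 4.36 in ES-derived cells. It was detected on no ES-derived array and was at least 4.09-fold higher in induced cells (adjusted p = 0.00729). Its close copy Lyz1, with which probe signal may be shared, was also detected on no ES-derived array and was at least 5.40-fold higher in induced cells (adjusted p = 0.00896). Of the 14 blood, endothelial and microglial genes tested, 1 (Lyz2) was called higher, against 0.558% of all features, and 0 lower, with a median of 0.18. The microglial genes Tyrobp, Fcer1g and C1qb were each detected on both induced arrays and on no ES-derived array, at differences of 1.26, 1.07 and 0.88, and none was called. The leukocyte and microglial genes Ptprc, Itgam and C1qa were detected on none of the 6 arrays and were not tested, and all 6 were named after their values were seen. Of the 14 differences 10 were above 0 and 4 below. The summed linear signal of the 14 was 681 to 693 in induced cells. It was 812 on the dim ES-derived array and 311 to 351 on the other ES-derived arrays. Of 19 such genes on the array, 5 were detected on each induced array and 1 or 2 on each ES-derived array. Their part in the Lyz2 result was not tested.

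Fibroblast genes as a group gave 2 calls. Of 23 tested, Lgals1 and Thy1 were called higher, against 0.558% of all features, 0 were called lower, and the median was 0.07. Lgals1, the lectin galectin-1, read 10.44 and 9.86 in induced cells, against 4.57, 6.35, 6.99 and 5.79 in ES-derived cells. Both induced arrays were above all 4 ES-derived arrays, and the difference was 4.23 ± 0.75 (adjusted p = 0.0384). Thy1, a surface glycoprotein of neurons as well as fibroblasts, read 8.13 and 7.15 in induced cells, against 4.49, 4.52, 4.32 and 4.36 in ES-derived cells. It was detected on no ES-derived array and was at least 2.88-fold higher in induced cells (adjusted p = 0.00455). Acta2, smooth muscle actin, was named after its values were seen and read 12.82 and 10.24 in induced cells, against 8.29, 4.38, 9.15 and 4.74 in ES-derived cells. Its difference of 4.88 ± 1.33 was not called (adjusted p = 0.172), but it was without the dim array (5.85 ± 1.39, adjusted p = 0.0476). Collagen genes that mark fibroblasts were low: Col3a1 was detected on neither induced array and on 1 ES-derived array, and Col1a2 on 1 array of each origin (0.01 ± 0.52). The summed linear signal of the 23 was 2989 to 11257 in induced cells and 794 to 2866 in ES-derived cells. Such a sum is weighted to the brightest members, and the 23 include Acta2, at 12.82 on the induced GFP-high array. Of 29 fibroblast genes on the array, 8 to 12 were detected on the induced arrays and 0 to 14 on the ES-derived arrays. Their part in other differences was not tested.

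Motor neuron transcription factors, the genes that define the cell type, gave 1 call. Mnx1, which encodes Hb9, read 6.47 and 6.35 in induced cells, against 4.35, 4.56, 4.48 and 4.83 in ES-derived cells. Both induced arrays and none of the ES-derived or embryonic arrays detected it, so it entered the test only through the induced arrays. It was at least 1.23-fold higher in induced cells, and the measured difference of 1.85 ± 0.35 missed the threshold (adjusted p = 0.0522) and passed it without the dim array (1.97 ± 0.35, adjusted p = 0.0165). Isl1 read 10.68 and 10.50 in induced cells, against 9.53, 11.59, 5.90 and 11.97 in ES-derived cells. The origins overlapped, with the ES-derived GFP-medium replicate 1 far below the rest, and the difference was 0.84 ± 1.42 (adjusted p = 0.861). Lhx3 was detected on neither induced array and on 2 of 4 ES-derived arrays (-0.48 ± 0.67, adjusted p = 0.83). Lmo4, a LIM-only cofactor of LIM-homeodomain proteins, was the member called, at 12.68 and 12.56 in induced cells, against 10.33, 8.52, 9.95 and 10.08 in ES-derived cells (2.90 ± 0.54, adjusted p = 0.0471). In all, 9 members were tested, with 1 called higher, against 0.558% of all features, and 0 lower. The median was -0.14, and its sign was kept in 18 of 21 other settings.

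The effector genes of motor neurons gave no calls. Of 9 cholinergic and neuromuscular genes tested, 0 passed in either direction, with a median of -0.44. Chat, which makes acetylcholine, read 7.38 and 6.26 in induced cells, against 8.26, 8.92, 4.44 and 7.32 in ES-derived cells. The origins overlapped (-0.42 ± 1.12, adjusted p = 0.922). Slc18a3, the vesicular acetylcholine transporter, was detected on 1 ES-derived array and no other, and was not tested. Chodl, a motor neuron surface lectin, read 9.02 and 8.68 in induced cells, against 4.26, 7.29, 6.02 and 5.24 in ES-derived cells, without overlap (3.15 ± 0.96, adjusted p = 0.218). Ret, a receptor for glial neurotrophic factors, differed by 1.52 ± 0.53 (adjusted p = 0.275). Among 11 motor column and pool genes 0 were called, with a median of -0.54. Zfhx3, a zinc finger homeobox gene, was called lower without the dim array (-2.19 ± 0.52, adjusted p = 0.0483). Aldh1a2, the retinoic acid synthase of limb motor columns, differed by -0.90 ± 0.42 (adjusted p = 0.44).

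Proneural and neuron-inducing factors included genes that are often used to convert fibroblasts, although the labels do not say which were used here. Of 9 tested, 0 were called, with a median of 0.98. Myt1, a zinc finger factor of differentiating neurons, read 12.23 and 12.21 in induced cells, against 4.28, 12.21, 6.38 and 11.53 in ES-derived cells. The induced arrays matched 2 of the 4 ES-derived arrays, and the difference was 3.62 ± 1.92 (adjusted p = 0.526). Neurod1, a neuronal differentiation factor, read 9.96 and 10.10 in induced cells, against 5.32, 8.83, 6.02 and 8.87 in ES-derived cells. Its induced arrays lay above all 4 ES-derived arrays (2.77 ± 1.01, adjusted p = 0.301). The related Neurod2 and Neurod4 differed by 1.26 ± 0.40 and 0.98 ± 0.66, and Insm1, a zinc finger factor of newborn neurons, by 1.28 ± 1.00. Neurog2, a proneural factor of motor neuron progenitors, was detected on neither induced array and on 2 ES-derived arrays (-1.68 ± 0.90). Pou3f2 and Zic1 were likewise detected on neither induced array (-0.67 ± 0.41 and -0.46 ± 0.67), and Myt1l differed by -0.00 ± 0.47.

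Other transcriptional regulators gave clear differences. Nfib, a nuclear factor I protein that acts in late neural and glial differentiation, read 8.74 and 8.16 in induced cells, against 4.40, 4.38, 4.50 and 4.33 in ES-derived cells. It was detected on no ES-derived array and was at least 5.04-fold higher in induced cells (adjusted p = 0.00261). Its family member Nfix, named after its values were seen, read 8.79 and 8.42 in induced cells, against 5.40, 4.35, 5.76 and 4.47 in ES-derived cells (3.61 ± 0.50, adjusted p = 0.0149). Bcl6, a transcriptional repressor, was detected on no ES-derived array and was at least 4.76-fold higher in induced cells (adjusted p = 0.00314). Stat3, a cytokine-activated factor, was called as well (2.14 ± 0.40, adjusted p = 0.0487), but with each probe tested on its own neither of its 2 probes was (adjusted p = 0.0511 and 0.352). Both genes were named after their values were seen. On the lower side, Sin3a and Sap30, subunits of a histone deacetylase complex, were called at -2.22 ± 0.41 and -2.24 ± 0.36, and they too were named after their values were seen.

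Eif2s3y, a Y-linked subunit of a translation initiation factor, read 9.11 and 8.95 in induced cells, against 4.49, 4.31, 4.52 and 4.31 in ES-derived cells. No ES-derived array detected it and all 4 embryonic arrays did (mean 7.64), and it was at least 7.51-fold higher in induced cells (adjusted p = 0.00108). The other Y-linked genes tested were looked up after this value was seen. Kdm5d was detected on none of the 6 arrays (0.15 ± 0.40), and Uty on neither induced array and on 3 ES-derived arrays (-0.17 ± 0.51). The probe used for the X inactivation transcript Xist was detected on none of the 6 arrays (-0.20 ± 0.48), and another of its probes on 1 ES-derived array.

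Glycolysis and hypoxia genes made the group with the most calls. Cells break down glucose by this pathway, and low oxygen raises many of its genes through the hypoxia-inducible factor, which binds the core ACGTG or GCGTG. Of 18 members tested, 5 were called lower in induced cells and 0 higher, against 0.248% called lower over all features. In all, 11 did not overlap in the lower direction, against 7.37% of all features, 16 of 18 differences were below 0, and the median was -1.35, against 0.08 for all features. Without the dim array 7 were called lower, against 1.93% of all features, and 0 higher, with a median of -1.18, against -0.07 for all features. The median stayed below 0 in all 21 other settings (-1.64 to -0.81).

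The promoters of the 4 called members that have an entry in the RefSeq table are shown because the list is defined in part by response to low oxygen. Each is the 250 bases before the gene start on GRCm38.p6, printed 5′ to 3′ on the gene's strand, with ACGTG or GCGTG on either strand (CACGT or CACGC on the printed one) in capitals. They are Slc2a1 at chr4:119108495-119108744 on the plus strand, and Hk2 at chr6:82774455-82774704, Pfkl at chr10:78009808-78010057 and Mgarp at chr3:51396548-51396797 on the minus strand.
Slc2a1: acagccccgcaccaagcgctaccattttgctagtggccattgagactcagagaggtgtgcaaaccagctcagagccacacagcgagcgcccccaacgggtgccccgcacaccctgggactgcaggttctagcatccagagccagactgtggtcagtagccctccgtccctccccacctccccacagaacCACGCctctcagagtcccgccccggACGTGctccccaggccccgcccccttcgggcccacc
Hk2: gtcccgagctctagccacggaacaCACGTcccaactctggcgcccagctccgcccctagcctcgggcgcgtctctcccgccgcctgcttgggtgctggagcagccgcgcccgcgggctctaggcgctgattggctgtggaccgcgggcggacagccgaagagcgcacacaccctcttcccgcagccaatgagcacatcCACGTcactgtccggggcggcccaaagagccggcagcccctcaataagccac
Pfkl: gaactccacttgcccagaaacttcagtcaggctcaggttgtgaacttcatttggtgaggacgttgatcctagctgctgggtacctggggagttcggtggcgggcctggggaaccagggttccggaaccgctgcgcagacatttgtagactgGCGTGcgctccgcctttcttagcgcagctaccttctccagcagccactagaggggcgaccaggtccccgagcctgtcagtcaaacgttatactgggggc
Mgarp: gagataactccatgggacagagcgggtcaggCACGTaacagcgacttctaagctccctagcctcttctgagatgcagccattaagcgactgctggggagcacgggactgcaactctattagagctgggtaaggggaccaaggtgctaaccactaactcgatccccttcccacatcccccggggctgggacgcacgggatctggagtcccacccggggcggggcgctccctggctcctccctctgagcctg
Slc2a1 and Hk2 held 2 matches each, and Pfkl and Mgarp 1 each. Of the 18 members tested, 17 had a promoter in the table and 16 of these held a match in at least 1 promoter entry. Counted per entry, as in the shares that follow, 21 of 27 held a match. The core is short and common: 12679 of 32851 promoters (38.6%) held a match, and 54.2% of the promoters of genes tested. Because the list was defined in part by response to low oxygen, its share is no test of that response. A match describes the letters only.

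Slc2a1, the glucose transporter GLUT1, read 6.38 and 5.88 in induced cells, against 9.96, 9.71, 10.05 and 11.22 in ES-derived cells. All 4 ES-derived arrays, the dim one included, lay at least 3 log2 units above the induced arrays, and the difference was -4.11 ± 0.58 (adjusted p = 0.0149). Hk2, hexokinase 2, which traps glucose in the cell, read 7.75 and 4.43 in induced cells, against 11.44, 11.71, 13.45 and 12.18 in ES-derived cells. The 2 induced arrays were far apart and only the GFP-high one detected it, yet both lay below every ES-derived array (-6.10 ± 1.07, adjusted p = 0.035). Pfkl, a subunit of phosphofructokinase, read 5.96 and 6.21 in induced cells, against 10.74, 9.33, 10.11 and 9.43 in ES-derived cells. The difference was -3.82 ± 0.48 (adjusted p = 0.00752), and -3.82 ± 0.38 without the dim array. A second Pfkl probe differed by -0.35 (adjusted p = 0.809 with each probe tested on its own), so the call rests on 1 of 2 probes. Mgarp, a mitochondrial protein induced by low oxygen, read 5.36 and 5.45 in induced cells, against 9.56, 8.06, 9.83 and 8.35 in ES-derived cells (-3.55 ± 0.56, adjusted p = 0.0224). Slc2a3, the neuronal glucose transporter GLUT3, is the fifth called member and was named after its values were seen. It read 7.87 and 7.90 in induced cells, against 11.14, 10.75, 12.43 and 10.96 in ES-derived cells (-3.44 ± 0.56, adjusted p = 0.0268).

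The embryonic arrays sat near the induced level for some of these genes, at a mean of 6.75 for Slc2a1 and 5.18 for Mgarp, and between the origins for Hk2 at 9.66. Other members were closer. Gapdh, Aldoa and Pfkm overlapped between the origins with differences of -0.65, -0.26 and -0.22, and Vegfa, the hypoxia-induced vascular growth factor, differed by 0.52. Tpi1 and Ldha lay lower in induced cells without overlap (-1.39 and -1.32) and were not called. These members of the list were named after their values were seen.

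**Figure D3:**
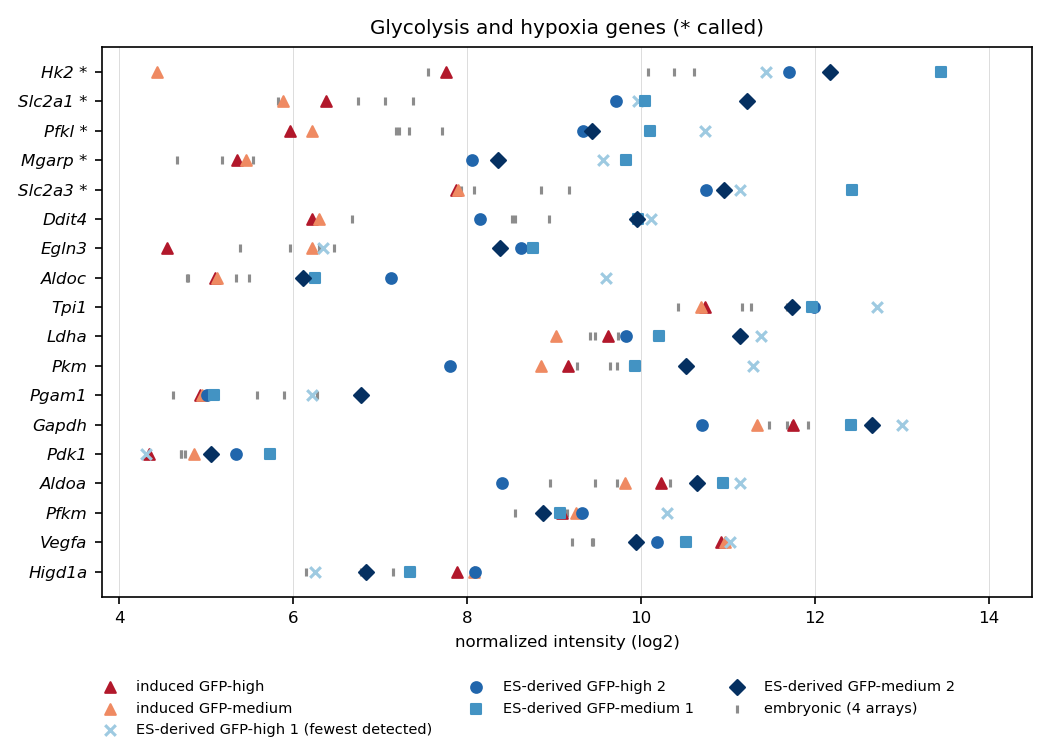
Normalized log2 intensity on each array (horizontal) for the 18 glycolysis and hypoxia genes tested, ordered by the difference between induced and ES-derived cells, with called genes marked by an asterisk. Red triangles are the 2 induced arrays, blue markers the 4 ES-derived arrays and grey ticks the 4 embryonic arrays; the 5 called genes stand at the top, with the triangles to the left of all blue markers.

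Mdk, the heparin-binding growth factor midkine, read 6.23 and 6.84 in induced cells, against 10.86, 10.67, 11.84 and 12.12 in ES-derived cells. The origins were far apart on every array, and the difference was -4.84 ± 0.41 (adjusted p = 0.00108). A second Mdk probe differed by -3.25 and was not called (adjusted p = 0.289 with each probe tested on its own). Its only close relative Ptn, pleiotrophin, named after its values were seen, was detected on neither induced array and on 3 ES-derived arrays. Ptn was at least 6.55-fold lower in induced cells (adjusted p = 0.0326). Sct, the peptide hormone secretin, read 5.62 and 4.28 in induced cells, against 11.45, 9.55, 9.01 and 8.69 in ES-derived cells. Here the dim array was the highest, and the difference was -4.73 ± 0.72, or -4.62 ± 0.59 without it (adjusted p = 0.0209 and 0.0039).

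Tceal5, a member of a brain-rich family of small nuclear proteins, read 4.36 and 4.27 in induced cells, against 10.53, 10.02, 9.91 and 9.08 in ES-derived cells. Neither induced array and all 4 ES-derived arrays detected it, and it was at least 25.8-fold lower in induced cells (adjusted p = 0.00108). Prmt8, a brain-enriched protein arginine methyltransferase, read 5.52 and 5.44 in induced cells, against 10.06, 11.16, 9.24 and 11.29 in ES-derived cells (-4.95 ± 0.57, adjusted p = 0.00455). Ndn, the imprinted gene for necdin, read 9.76 and 8.71 in induced cells, against 13.20, 12.44, 11.63 and 11.90 in ES-derived cells. Both induced arrays were below all others (-3.05 ± 0.47, adjusted p = 0.0212). Of 11 imprinted growth genes tested 1 (Ndn) was called lower, against 0.248% of all features, and 0 higher, with a median of -0.72. Without the dim array Igf2r, a clearance receptor for insulin-like growth factor 2, was called lower as well, against 1.93% of all features.

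The LIM-domain genes Fblim1 and Csrp2 were lower too. Fblim1, which links filamin to cell adhesions, read 4.23 and 4.25 in induced cells, against 8.62, 9.20, 7.84 and 8.65 in ES-derived cells. It was detected on neither induced array and was at least 10.4-fold lower in induced cells (adjusted p = 0.00261). Csrp2 read 5.78 and 4.69 in induced cells, against 9.97, 8.77, 9.79 and 9.39 in ES-derived cells (-4.25 ± 0.59, adjusted p = 0.0148).

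Sox21, a progenitor gene of the SoxB group, read 5.10 and 5.41 in induced cells, against 8.87, 7.88, 8.27 and 10.90 in ES-derived cells (-3.72 ± 0.69, adjusted p = 0.0471). Of 12 neural progenitor genes tested Sox21 was the only call, against 0.248% of all features called lower, with a median of -0.59. Without the dim array the progenitor gene Irx3 was called lower as well, against 1.93% of all features. Uhrf1, which keeps DNA methylation through replication, read 5.68 and 5.20 in induced cells, against 8.24, 8.31, 10.56 and 9.68 in ES-derived cells (-3.76 ± 0.60, adjusted p = 0.0227). The ES-derived GFP-medium arrays were higher than the GFP-high arrays, and all 4 lay above the induced arrays. Of 24 cell cycle genes tested 0 were called, with a median of -0.76, while 9 did not overlap in the lower direction against 7.37% of all features. Mcm5, a replication helicase subunit, read 6.68 and 7.09 in induced cells, against 9.85, 8.13, 11.22 and 9.46 in ES-derived cells (-2.78 ± 0.65, adjusted p = 0.121). Cenpa, the centromeric histone, differed by -2.79 ± 0.78 (adjusted p = 0.183). In the fit that left out the dim array, 5 of 24 were called lower, against 1.93% of all features, and 0 higher, with a median of -1.02.

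Pluripotency genes gave the list with the lowest median, with and without the dim array. The median over 14 members tested was -2.32, against 0.08 over all features, with 13 of 14 differences below 0 and 0 called in either direction. Their levels varied widely among ES-derived arrays. Dppa4, a chromatin protein of pluripotent cells, read 4.38 and 4.23 in induced cells, where no array detected it, against 9.42, 5.95, 12.26 and 8.24 in ES-derived cells (at least 13.7-fold lower in induced cells, adjusted p = 0.18). Lin28a, an RNA-binding protein that blocks let-7 processing, read 4.45 and 4.75 in induced cells, against 4.84, 8.82, 10.45 and 8.26 in ES-derived cells, again undetected in induced cells (at least 7.46-fold lower there, adjusted p = 0.235). Without the dim array Lin28a and Sall4, a zinc finger factor of ES cells, were called lower (adjusted p = 0.00347 and 0.0204), and the median was -2.99. The ES-derived GFP-medium replicate 1 was the highest for many members: Nanog, a core pluripotency factor, read 4.40 and 4.25 in induced cells, against 12.36 on that array and 4.94, 5.70 and 8.04 on the other ES-derived arrays. The summed linear signal of the 14 was 757 to 773 in induced cells and 1646 to 3744 in ES-derived cells other than the GFP-medium replicate 1, which read 36576, and its part in the other differences between origins was not tested.

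Hox genes, which record position along the body axis, showed opposite medians for anterior and middle paralogs. Of 12 tested genes of paralogs 1 to 5, 0 were called, 11 differences were below 0 and the median was -0.76, while of 9 tested genes of paralogs 6 to 9, 0 were called and the median was 1.16. Both signs were kept in all 21 other settings, although with undetected values at the lowest detected signal of their array the medians were -1.33 and 0.32, against -0.74 over all features. Of the 9 middle Hox genes, 7 did not overlap in the higher direction, against 13.9% of all features. Hoxc9, a gene of thoracic levels, read 9.33 and 9.94 in induced cells, against 5.59, 6.33, 8.39 and 5.41 in ES-derived cells, and all 4 embryonic arrays lay above both. The difference was 3.21 ± 0.72 (adjusted p = 0.109), and 3.29 ± 0.78 (adjusted p = 0.0483) without the dim array. Hoxa7 differed by 1.93 ± 0.67 (adjusted p = 0.278). Hoxd4, an anterior gene, read 5.42 and 4.42 in induced cells, against 6.53, 9.01, 7.51 and 9.69 in ES-derived cells (-3.26 ± 0.90, adjusted p = 0.18), and was called lower without the dim array (-4.19 ± 0.84, adjusted p = 0.0276). Hoxd3 was detected on neither induced array and on 3 ES-derived arrays (-2.27 ± 0.86, adjusted p = 0.326). Of 6 genes of paralogs 10 to 13 tested 0 were called, with a median of -0.11. Hoxc13 and the probe used for Hoxc10 were detected on none of the 6 arrays (-0.84 ± 0.40 and 0.48 ± 0.44), and a second Hoxc10 probe was detected on some of them and differed by 0.05.

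**Figure D4:**
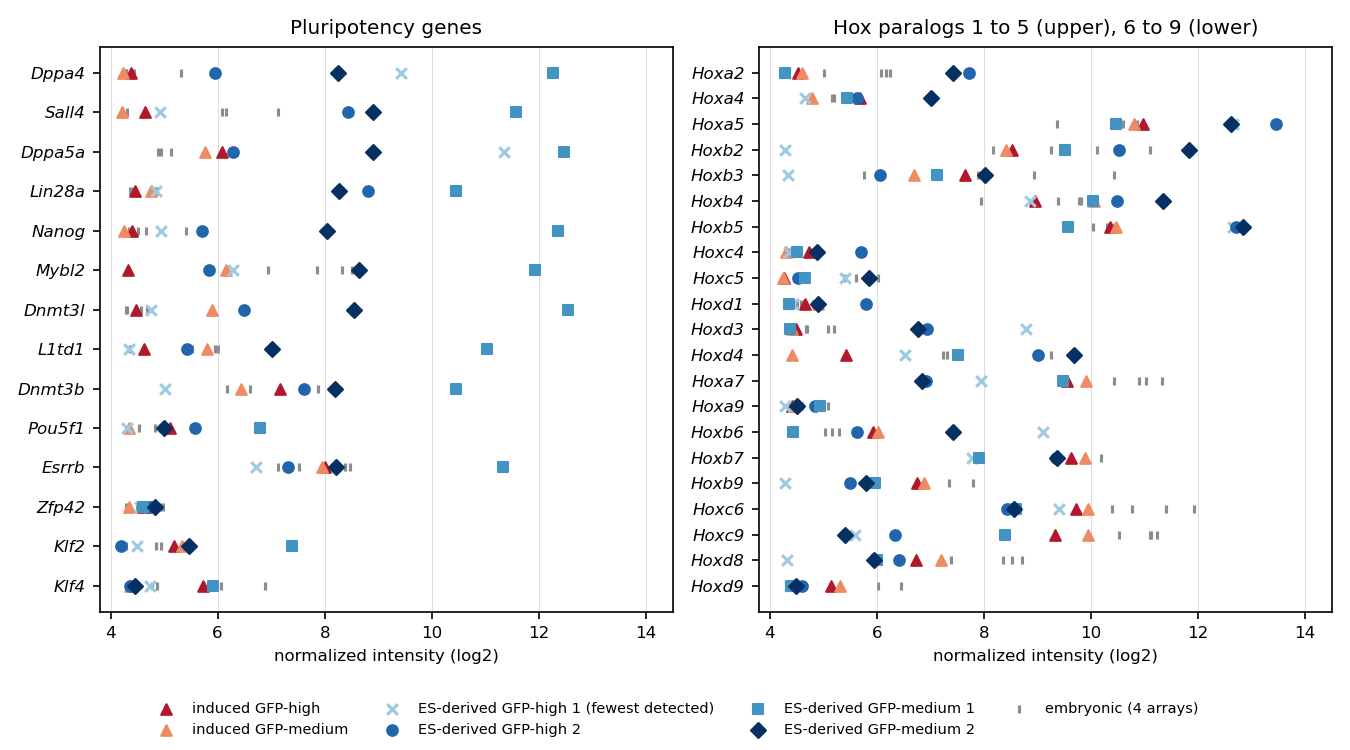
Normalized log2 intensity on each array (horizontal) for the 14 pluripotency genes tested, ordered by their difference (left), and for 12 genes of Hox paralogs 1 to 5 above 9 genes of paralogs 6 to 9 (right). Red triangles are the 2 induced arrays, blue markers the 4 ES-derived arrays and grey ticks the 4 embryonic arrays; the GFP-medium replicate 1 (square) is far to the right for Nanog at 12.36, and the triangles of Hoxc9 lie to the right of all blue markers.

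General neuronal and synaptic genes had medians above 0 and few calls. Of 18 pan-neuronal genes tested 1 (Thy1) was called higher, against 0.558% of all features, and 0 lower, with a median of 0.97. When the dim array was left out, 3 were called higher, against 2.26% of all features, and the median was 1.52. The added genes were Ncam1, a neural adhesion molecule, and Stmn3, a microtubule regulator. Tubb3, the neuronal beta tubulin, was detected on none of the 6 arrays (-0.27 ± 0.41) and on 2 embryonic arrays. Its level was therefore not measured in either origin compared here. Of 15 synaptic genes tested 0 were called, with a median of 0.36. Vamp1, a vesicle fusion protein, read 9.80 and 7.97 in induced cells, against 4.29, 6.27, 6.82 and 5.72 in ES-derived cells (3.11 ± 0.86, adjusted p = 0.18). Its other probes differed by 3.00 and -0.41. Syn1, which tethers vesicles, differed by 1.56 ± 0.49 (adjusted p = 0.233). The vesicle genes Syn2 and Syt4 were called higher when the dim array was left out. Both medians stayed above 0 in all 21 other settings.

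Mitochondrial and ribosomal genes gave no call over all arrays. Of 28 respiratory chain genes tested 0 were called, with 24 differences above 0, a median of 0.66 and 9 genes that did not overlap in the higher direction, against 13.9% of all features. Cox7a2, a subunit of cytochrome oxidase, read 9.60 and 9.57 in induced cells, against 7.62, 8.29, 8.40 and 7.48 in ES-derived cells (1.64 ± 0.47, adjusted p = 0.19). Ndufs4, a complex I subunit, differed by 1.28 ± 0.42 (adjusted p = 0.246). Of 45 ribosomal protein genes tested 0 were called, with a median of 0.31, and Rpl34 and Rpl19 came nearest (1.17 ± 0.49 and 1.42 ± 0.61). Without the dim array the ribosomal median was 0.67 and Rpl21 was called lower (-2.17 ± 0.51, adjusted p = 0.0457), while the respiratory chain median was 0.85 with 0 calls.

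Markers of other cells the sort could hold gave few calls. Of 11 genes of other spinal neurons tested 0 were called, with a median of -0.60. Lhx1, a LIM-homeodomain factor of interneurons and lateral motor neurons, was undetected in induced cells (at least 3.94-fold lower there, adjusted p = 0.215) and was called lower without the dim array (adjusted p = 0.0435), and Slc17a6, a glutamate transporter, differed by -1.98 ± 0.85. Of 10 glial genes tested 0 were called, with a median of -0.28, and Mbp, a myelin protein, was called lower without the dim array (-3.12 ± 0.54, adjusted p = 0.014). Pdgfra, an oligodendrocyte precursor receptor, differed by -1.24 ± 0.87. Of 12 muscle genes tested 0 were called, with a median of -0.21, and Tnnt1, a slow muscle troponin, was undetected in induced cells (at least 3.39-fold lower there, adjusted p = 0.405) and was called lower without the dim array (adjusted p = 0.039). The muscle gene Tpm2 differed by -1.25 ± 0.53.

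The stress, signalling and lipid lists held no call over all arrays. The medians were -0.20 over 19 integrated stress response genes, -0.50 over 15 p53 pathway genes, -0.24 over 14 immediate early genes, -0.11 over 13 cholesterol genes and -0.03 over 14 interferon and antigen presentation genes. They were -0.15 over 10 Notch pathway genes and -0.57 over 9 metallothionein and zinc genes. The members with the smallest p were Ddit3 (2.10 ± 0.67) and the amino acid transporter gene Slc7a3 (-2.12 ± 0.97) for the stress response, Gtse1 (-2.29 ± 0.89) and Gadd45a (-1.04 ± 0.46) for p53, and Jund (1.14 ± 0.60) and Egr2 (-1.34 ± 0.71) for immediate early genes. They were Lss (-1.57 ± 0.45) and Insig1 (-2.13 ± 1.11) for cholesterol, and Ifit3 (2.08 ± 0.74) and B2m (1.72 ± 0.69) for the interferon list. Mfng (2.86 ± 1.28) and Dll3 (1.45 ± 0.99) stood first for Notch, and Mt3 (1.49 ± 0.54) and Mtf1 (-1.43 ± 0.65) for zinc. None of these was called over all arrays. Without the dim array 3 of 19 stress response genes were called lower, against 1.93% of all features. They were Slc7a3 (-3.31 ± 0.60, adjusted p = 0.0176), Chac1 (-2.34 ± 0.48) and Psat1 (-1.88 ± 0.41). The p53 target Bbc3 (-2.41 ± 0.48) was called lower in that fit as well. Chac1, Psat1, Bbc3 and the ribosomal Rpl21 were named after their values were seen. The other 5 of these lists had 0 calls without the dim array.

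**Figure D5:**
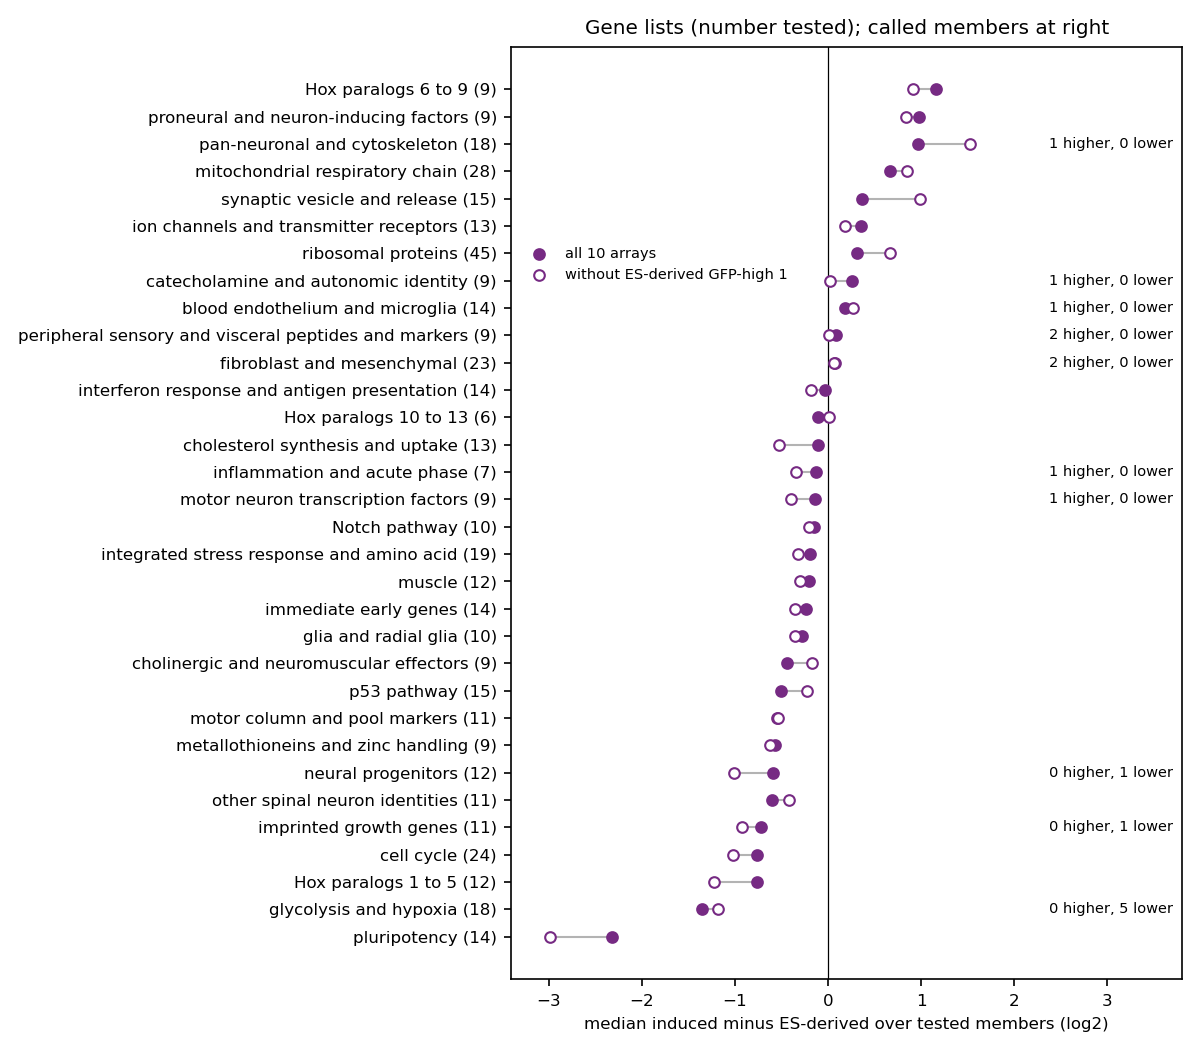
Median difference between induced and ES-derived cells (log2, horizontal) over the tested members of 32 gene lists, with the number tested in brackets and the called members at the right. Filled points use all 10 arrays and open points leave out the ES-derived GFP-high replicate 1; among filled points pluripotency (-2.32) and glycolysis and hypoxia (-1.35) lie lowest and Hox paralogs 6 to 9 (1.16) highest, and among open points pluripotency (-2.99) and Hox paralogs 1 to 5 (-1.23) lie lowest and pan-neuronal genes (1.52) highest.

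No change of the difference between origins with the GFP gate was detected over all arrays. In a fit of all 6 groups, 0 of 9679 features (0%) passed an adjusted p of 0.05 for the difference between gates in induced against ES-derived cells, with 114 (1.18%) at an unadjusted p under 0.05 and a smallest adjusted p of 1.00. Each induced gate is 1 array, so only large differences could pass. Without the ES-derived GFP-high replicate 2, however, 377 features passed, 297 of them higher and 80 lower, but that fit leaves the dim array as the only ES-derived GFP-high array against single induced arrays. For Hk2 the induced minus ES-derived difference was -3.82 in GFP-high cells and -8.38 in GFP-medium cells, and for Gal it was 6.56 and 4.21. For Th it was 4.82 and 5.75, and for Mdk -4.54 and -5.14.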

How the data were processed

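RNA from sorted cells was extracted with Trizol and amplified in 2 rounds before hybridisation, per the labels' protocols. The authors deposited a linear intensity per probe and array and a detection p-value, per the file headers, exported with BeadStudio per the submitters' processing notes. Values below 0 show that background had been subtracted. A deposited table of the authors' normalized intensity served as an alternative, and how it was normalized was not stated in the labels or headers. No column was left unmapped (0).

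Intensities were corrected with normexp (detection p-values, offset 16), brought to log2 and quantile normalized with limma 3.58.1 in R 4.3.3. Of 25697 probes, 23978 had 1 symbol in the platform annotation, 0 several and 1719 none. Probes entered the test if 2 or more arrays had a detection p under 0.01 (11915 probes), and each gene was represented by its probe with the highest mean. Of the called genes, 8 had several kept probes, 0 of these disagreed in sign, and in 0 of them were all probes called when each was tested on its own. The model held origin and GFP gate over all 10 arrays (6 residual degrees of freedom), with moderated statistics and Benjamini-Hochberg adjustment at 0.05, and was tested on simulated data. The number of arrays limits the precision. A second fit left out the ES-derived GFP-high replicate 1, and another fit held all 6 groups.

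Genes named are the 10 largest rises and falls among called genes with established symbols and no overlap, up to 3 called members of each of 32 lists (or 2 by smallest p), and a fixed set of motor neuron and proneural genes. The comparison, lists and members were chosen with earlier results of these data known. Same-numbered replicates of the 2 gates showed little common deviation (r = 0.0994 in ES-derived cells and -0.0905 in embryonic cells), and the numbers were not taken as pairs. With 2 replicates per gate, and the dim array among the ES-derived ones, this check cannot exclude a pairing. Alternatives covered normalization, background, filters, probes, array weights, the gate term and each array left out. Promoters came from RefSeq (GRCm38.p6).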

Additional observations from a re-analysis of the deposited data

Results flagged for a closer look

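Among the 83 genes examined for a sample far from the others, 6 had 1 ES-derived array that stood apart from the other 3, by Dixon's ratio for 4 arrays. Chance gives such an array in about 1 of 20 groups. Values are normalized log2 intensities. B2m read 4.55 on the dim GFP-high replicate 1, against 6.66 to 6.96 on the others. Zic1 read 6.30 on that array, against 4.35 to 4.57, and no ES-derived array detected it. On GFP-medium replicate 2, Ret read 5.31 against 4.55 to 4.68, and Jund read 6.33 against 4.40 to 4.60. On GFP-medium replicate 1, Mt3 read 4.81 against 4.40 to 4.46, and Hoxc10 read 5.17 against 4.26 to 4.39, and for both the probe used was detected on no ES-derived array.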

How the results depend on the processing

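Over all arrays 78 features were called. The count ranged from 1 to 404 with 1 array left out. It was 1093 (489 higher, 604 lower) without the 3 dimmest arrays, 1581 (816 higher, 765 lower) with array weights, 4 (4 higher, 0 lower) with median scaling and 0 with only the 6 induced and ES-derived arrays (limma, 536 at an unadjusted p under 0.05, smallest adjusted p 0.0962, 3 residual degrees of freedom). It was 61 with the authors' normalized values, 68 without background correction, 90 with an offset of 50, 109 without a filter on dim probes, 56 with detection on at least 4 arrays, 79 per probe and 98 without the gate term. The authors' values moved the median of all features to 0.23, against 0.08. With the replicate number as a random block (replicate block, consensus correlation 0.110) the count was 57. The check of deviations showed no clear pairing by number but cannot exclude it. Leaving out the ES-derived GFP-high replicate 1 gave 404 calls. From there, alternatives chosen after seeing the data gave 4 (median scaling, 3 higher and 1 lower, namely Serpina3n, Th, an unnamed probe and Lin28a, with a median of all features of -0.49), 336 (authors' values), 404 (no background correction), 28 (the 5 induced and ES-derived arrays only) and 41 to 744 with a further array left out. The gate difference gave 0 calls in each alternative run, except 377 without the ES-derived GFP-high replicate 2 (range 0 to 377). The 27 named called genes gave 563 gene and setting pairs, of which 395 were called in the same direction, 168 kept the direction without a call and 0 turned. Median scaling kept 2 of the 27 calls. The cause of these shifts was not tested. Signal over background limits the dim array most, and undetected probes give bounds only.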
